A study of Mus musculus with 4 samples.

Results

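The genes described here encode the enzymes and carriers of mitochondrial and peroxisomal fatty acid oxidation. The list holds 38 genes, fixed by name and matched by symbol, and all 38 were found among the 17013 genes with deposited values. Bone marrow-derived macrophages (genotype WT) of male C57BL/6 mice, whose age is not given in the sources used here, grown with M-CSF, were kept for 24 h on porous culture inserts with artificial necrotic bone fluid (aNBF), an extract of freeze-thawed bone that mimics the osteonecrotic environment. In the fat control medium (Con) the cells received the middle layer of a preparation of freeze-thawed abdominal fat, and in the high-fat-containing medium (Fat) they received its top fat layer. Both groups therefore had aNBF and products of necrotic fat tissue, and they differed in the fat layer added. RNA was sequenced in 2 libraries from Con and 2 from Fat. Whether the libraries of a group came from separate mice or cultures is not given in the sources used here, so the p-values measure the spread between these libraries, which may be technical.

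Long-chain fatty acids enter mitochondria as carnitine esters through the carnitine shuttle, are shortened there by a repeating cycle of dehydrogenation, hydration, a second dehydrogenation and thiolysis, and pass electrons to the respiratory chain through electron transfer flavoprotein. Peroxisomes run a related cycle on very long and branched chains with their own oxidases, bifunctional enzymes and thiolases. Many of these genes are known targets of the fatty acid-sensing PPAR nuclear receptors, and in macrophages fatty acid oxidation is often discussed in connection with alternative activation.

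Upstream sequence is described first, and Hadha and Hadhb lie head to head. RefSeq promoters on GRCm38.p6 were found for 31 of the 38 members. The submitters' processing notes name GRCm39, so these coordinates were not used with the expression values. The 250 bases before the start of each gene were searched on both strands for the PPAR element, AGGTCA followed after 1 base of any kind by a second AGGTCA, with up to 2 mismatches over both repeats. Such a match was present for 3 of the 31 members (9.68%) and for 3.72% of the 27025 genes with a promoter. Among the 9348 of those genes that were tested, 2.95% had a match. The 3 members were Ucp3 and Echs1, which carried the largest rise and the only called fall among the members, and Etfa, which was not called. Each match had 2 mismatches. The second motif, TCAAGGTCA, the site of the estrogen-related receptors, which shares AGGTCA with the first, was present in 0 of the 31 members and in 0.422% of all genes. The 3 sequences with a match are shown 5′ to 3′ on the strand of the gene, with the matched bases in capitals.
Ucp3 (chr7:100472741-100472990, + strand): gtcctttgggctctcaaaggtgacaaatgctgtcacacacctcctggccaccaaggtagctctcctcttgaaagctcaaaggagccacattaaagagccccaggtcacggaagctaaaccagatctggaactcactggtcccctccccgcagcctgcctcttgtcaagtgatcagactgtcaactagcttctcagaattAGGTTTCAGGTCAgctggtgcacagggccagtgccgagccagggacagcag
Echs1 (chr7:140116422-140116671, - strand): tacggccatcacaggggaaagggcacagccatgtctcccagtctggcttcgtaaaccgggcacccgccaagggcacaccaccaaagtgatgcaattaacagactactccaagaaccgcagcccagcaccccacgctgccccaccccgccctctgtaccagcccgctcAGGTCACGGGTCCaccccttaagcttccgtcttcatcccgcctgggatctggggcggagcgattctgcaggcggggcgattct
Etfa (chr9:55512244-55512493, - strand): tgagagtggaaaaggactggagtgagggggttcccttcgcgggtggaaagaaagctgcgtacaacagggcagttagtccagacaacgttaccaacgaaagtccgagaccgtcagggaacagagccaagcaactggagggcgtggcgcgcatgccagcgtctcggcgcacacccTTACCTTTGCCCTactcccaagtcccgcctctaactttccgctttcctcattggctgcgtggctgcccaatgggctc
A match describes letters only, and it was found beside a member that rose, a member that fell and a member that was not called. The region between Hadha and Hadhb is shown on the + strand because both genes start from it, with the 228 bases that belong to the upstream windows of both genes in capitals.
Hadhb (chr5:30155003-30155252, + strand): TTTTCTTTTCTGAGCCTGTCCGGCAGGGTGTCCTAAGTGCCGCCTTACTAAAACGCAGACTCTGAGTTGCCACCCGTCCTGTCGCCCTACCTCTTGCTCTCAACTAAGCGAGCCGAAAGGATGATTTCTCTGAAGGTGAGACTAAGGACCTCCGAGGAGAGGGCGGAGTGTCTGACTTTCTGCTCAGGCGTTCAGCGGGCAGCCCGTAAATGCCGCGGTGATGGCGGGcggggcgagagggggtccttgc
The starts of Hadha and Hadhb lie 273 bases apart in this annotation, with Hadha read from the - strand.

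Pairs of values are given in the order of replicates 1 and 2. Values are given as CPM (reads scaled to a common library size) within a gene, and as TPM (also scaled for gene length) wherever genes are compared with each other. The recovered read totals lay between 33573852 and 40785872 per library, and a single read was worth between 0.0244 and 0.0295 CPM. Of the fixed macrophage markers, all 7 examined lay above 120 CPM in every library. Of these, 2 were called lower in Fat, Fcgr1 and Mertk (log2 fold changes -0.88 and -0.31), against 5.0% of all genes tested. Lyz2, Mrc1 and Csf1r lay lower in both Fat libraries without being called (-0.41, -0.22 and -0.21). Cd68 and Itgam were not called, at log2 fold changes of 0.09 and 0.07. The 13 adipocyte markers held 7 and 9 reads in all in the Con libraries and 423 and 240 reads in the Fat libraries. In Con 7 of them were at 0 in both libraries. Markers of stromal or mesothelial cells held between 9617 and 14152 reads per library, most of them from Col1a1. Of the 4 such markers tested, 1 was called lower in Fat, Dcn (log2 fold change -0.82, limma adjusted p = 0.0358), against 5.0% of all genes tested. Pdgfra and Col3a1 lay lower in both Fat libraries without being called (-0.50 and -0.21). Col1a1 overlapped between groups, at 195.2 and 214.8 CPM in Con and at 175.6 and 253.5 CPM in Fat (log2 fold change 0.04). The part of these markers in the members' results was not tested. Markers of neutrophils held between 11743 and 12923 reads, of T or B cells between 447 and 547, and of endothelial cells between 174 and 309. Because whole cultures were sequenced, a change in the share of a cell type and a change in RNA per cell cannot be told apart.

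The comparison of Fat with Con asked how transcripts of the pathway differed between macrophages given the top fat layer and those given the middle layer. The largest changes were those of the mitochondrial carrier Ucp3 and the cytosolic thioesterase Acot1, both at low level, followed by Ucp2, Cpt1a and the carnitine carrier Slc25a20. Echs1, the short-chain hydratase, was the only member called lower. Of the 38 members, 37 reached 0.5 CPM in 2 or more libraries and were tested, and Acaa1b was not. Ucp3 passed this filter only through its Fat libraries, and the counts of called members below include it. With limma on log2(CPM + 0.1), two-sided and with Benjamini-Hochberg adjustment over all 12470 genes tested, 11 of the 37 were called higher at an adjusted p-value under 0.05 (29.7%, against 3.99% of all genes tested) and 1 was called lower (2.70%, against 5.0%), so either direction held 9.0% of all genes tested. The median log2 fold change of the tested members was 0.09, against 0.01 over all genes tested. Both Fat libraries lay above both Con libraries for 20 tested members (54.1%, against 29.4% of all genes tested) and below both for 6, against 26.2%. The other 11 overlapped. The counts by role below rest on few genes each, so a single call says little about a role.

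Those counts depended on how the spread was estimated. Without limma's mean-variance trend, 0 members were called in either direction (smallest adjusted p = 0.0772), when 0.249% of all genes tested were called (0.152% higher and 0.0962% lower). With unadjusted p-values up to 0.05 that fit still had 15 members higher (9.94% of all genes tested) and 2 lower (11.2%). On the recovered reads, edgeR's quasi-likelihood test called 11 higher and 1 lower (3.93% and 5.20% of all genes tested), its exact test 12 and 1 (5.72% and 7.45%), and DESeq2 8 and 1 (3.66% and 4.77%). On TPM values limma called 11 and 1 (3.41% and 2.94%). With 2 libraries in each group, permuting the labels of a single gene exactly cannot give a two-sided p under 0.333.

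**Figure D1:**
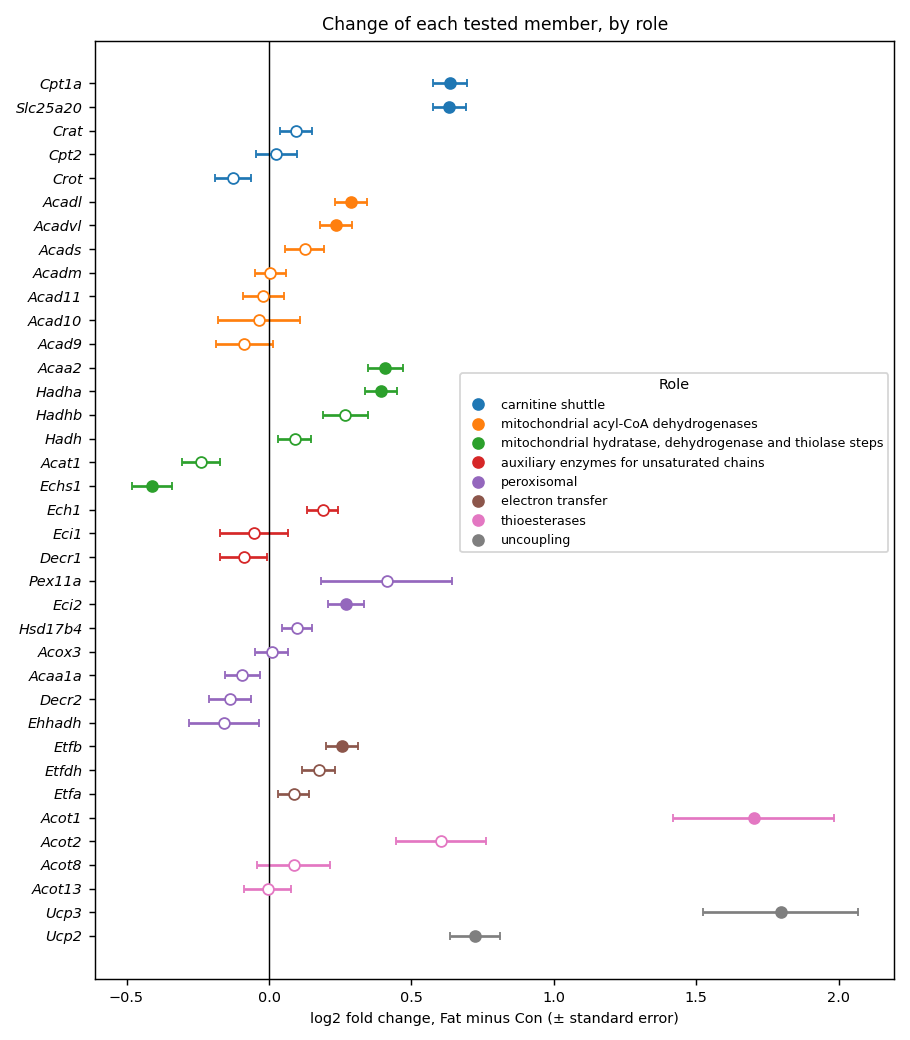
The log2 fold change of Fat against Con (x axis, with the limma standard error as bars) is plotted for each of the 37 tested members (y axis), coloured by role. Filled points are the 12 members called at an adjusted p-value under 0.05. Ucp3 and Acot1 lie farthest to the right at 1.80 and 1.70, and Echs1 is the only filled point left of 0.

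Of the 5 genes of the carnitine shuttle, 2 were called higher (against 3.99% of all genes tested), both on the way into the matrix. The smallest adjusted p of the other 3 was 0.278. Cpt1a, the outer membrane acyltransferase that sets the rate of long-chain entry, was at 211.6 and 195.7 CPM in the Con libraries and at 319.0 and 312.8 CPM in the Fat libraries. The Fat libraries were both high and the groups did not overlap. Cpt1a rose by 0.63 on the log2 scale (standard error 0.06, 1.55-fold, limma adjusted p = 0.00316, n = 2 each). Slc25a20, the carrier that exchanges acylcarnitine for carnitine across the inner membrane, was at 36.3 and 36.4 CPM in Con and at 56.9 and 56.0 CPM in Fat. Replicates of Slc25a20 differed by little beside the gap between groups. Slc25a20 also rose by 0.63 on the log2 scale (standard error 0.06, limma adjusted p = 0.00297). Leaving out 1 library at a time gave values between 0.58 and 0.69 for Cpt1a and between 0.62 and 0.64 for Slc25a20. Cpt2, which returns the acyl group to coenzyme A inside the matrix, stood at 20.02 ± 0.417 CPM (SD, n = 2) in Con and 20.4 ± 0.503 CPM in Fat, and its log2 fold change of 0.03 had a 95% interval from -0.14 to 0.19. The ratio of Cpt1a to Cpt2 in TPM was 5.69 and 5.42 in the Con libraries and 8.40 and 8.53 in the Fat libraries. Crat, the acetyltransferase, and Crot, the octanoyltransferase of peroxisomes, were not called, at 0.09 and -0.13 on the log2 scale (limma adjusted p = 0.367 and 0.278).

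Among the 7 acyl-CoA dehydrogenases, which catalyse the opening step of each cycle, Acadl and Acadvl were called higher (against 3.99% of all genes tested). The other 5 were not called. Acadl, the long-chain dehydrogenase, was at 92.7 and 95.3 CPM in Con and at 118.5 and 111.2 CPM in Fat. Acadl rose by 0.29 on the log2 scale (standard error 0.06, limma adjusted p = 0.0243). Acadvl, the very long-chain dehydrogenase, was at 73.2 and 76.0 CPM in Con and at 85.8 and 89.8 CPM in Fat. Acadvl rose by 0.23 on the log2 scale (standard error 0.06, limma adjusted p = 0.0456). For both genes the groups did not overlap, with the lower Fat library close above the higher Con library for Acadvl. Exons of Acadvl overlap those of Dvl2 on the opposite strand over 45.0% of their bases in GENCODE vM21, and the strand setting of the counting is not given in the sources used here. Acadm, the medium-chain dehydrogenase, was at 69.6 ± 0.187 CPM (SD, n = 2) in Con and 69.8 ± 0.818 CPM in Fat, with a 95% interval of its log2 fold change from -0.12 to 0.13. Acads, the short-chain enzyme, was at 49.4 and 55.2 CPM in Con and at 56.3 and 57.5 CPM in Fat (log2 fold change 0.12, adjusted p = 0.324). Acad9, known for its part in assembling respiratory complex I, and the less studied Acad10 and Acad11 overlapped between groups, with log2 fold changes between -0.09 and -0.02. The median of the 7 genes was 0.00 on the log2 scale, and it took either sign when the values were rescaled.

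The steps after the dehydrogenases moved in both directions. Among the 6 members, limma called 2 higher and 1 lower (against 3.99% and 5.0% of all genes tested). Hadha and Acaa2 were on the side opposite to Echs1. Hadha, the subunit of the trifunctional protein that holds the long-chain hydratase and dehydrogenase, was at 118.6 and 124.0 CPM in Con and at 163.1 and 155.6 CPM in Fat. Hadha rose by 0.39 on the log2 scale (standard error 0.06, limma adjusted p = 0.00845). Hadhb, which holds the thiolase of the same complex and starts from the same stretch of upstream sequence shown above, was at 22.1 and 20.2 CPM in Con and at 26.3 and 24.7 CPM in Fat. Both of its Fat libraries lay above both Con libraries, but it was not called (log2 fold change 0.27, 95% interval 0.08 to 0.45, adjusted p = 0.0842). Per length, Hadha exceeded Hadhb 2.90 and 3.32 times in the Con libraries and 3.35 and 3.41 times in the Fat libraries, so the ratios of Con replicate 2 and the Fat libraries were close together. For Hadhb, 57.2% of the 75-base stretches of its transcript are also found in transcripts of the gene models Gm13910 and Gm9108, and its reads are uncertain to that extent. Acaa2, the mitochondrial thiolase, was at 45.2 and 48.2 CPM in Con and at 61.9 and 62.2 CPM in Fat. Acaa2 rose by 0.41 on the log2 scale (standard error 0.06, limma adjusted p = 0.00941).

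Echs1, which hydrates short-chain enoyl-CoA and also serves the breakdown of valine, was at 58.4 and 65.6 CPM in Con and at 46.7 and 46.3 CPM in Fat. It fell by 0.41 on the log2 scale (standard error 0.07, limma adjusted p = 0.0154), with both Fat libraries below both Con libraries. Leaving out 1 library at a time gave log2 fold changes between -0.50 and -0.33, and the call held each time. Acat1, the acetoacetyl-CoA thiolase that also acts in ketone body use and isoleucine breakdown, was at 32.3 and 30.4 CPM in Con and at 26.1 and 26.9 CPM in Fat. It was not called (log2 fold change -0.24, 95% interval -0.40 to -0.08, adjusted p = 0.0748). Hadh, the short-chain hydroxyacyl-CoA dehydrogenase, was not called either (log2 fold change 0.09, adjusted p = 0.394).

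Of the 3 auxiliary enzymes that prepare unsaturated chains, limma called none, and Ech1 alone had an unadjusted p under 0.05. Ech1, a dienoyl-CoA isomerase, came nearest (log2 fold change 0.19, adjusted p = 0.0786), with 72.3 and 75.3 CPM in Con and 83.5 and 84.8 CPM in Fat. Eci1, an enoyl-CoA isomerase, and Decr1, the mitochondrial dienoyl-CoA reductase, overlapped between groups (log2 fold changes -0.05 and -0.09). In the transfer of electrons, Etfb, a subunit of electron transfer flavoprotein, was at 56.2 and 56.5 CPM in Con and at 66.3 and 68.3 CPM in Fat (a rise of 0.26 on the log2 scale, standard error 0.06, limma adjusted p = 0.0308). Its partner subunit Etfa and the ubiquinone oxidoreductase Etfdh each lay higher in both Fat libraries without being called, at log2 fold changes of 0.09 and 0.17 (adjusted p = 0.383 and 0.118). The TPM ratio of Etfb to Etfa was 1.37 and 1.34 in Con and 1.49 and 1.56 in Fat. Of the stretches of Etfb, 66.5% are also in the overlapping gene model Gm45233, so its reads may include that model.

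**Figure D2:**
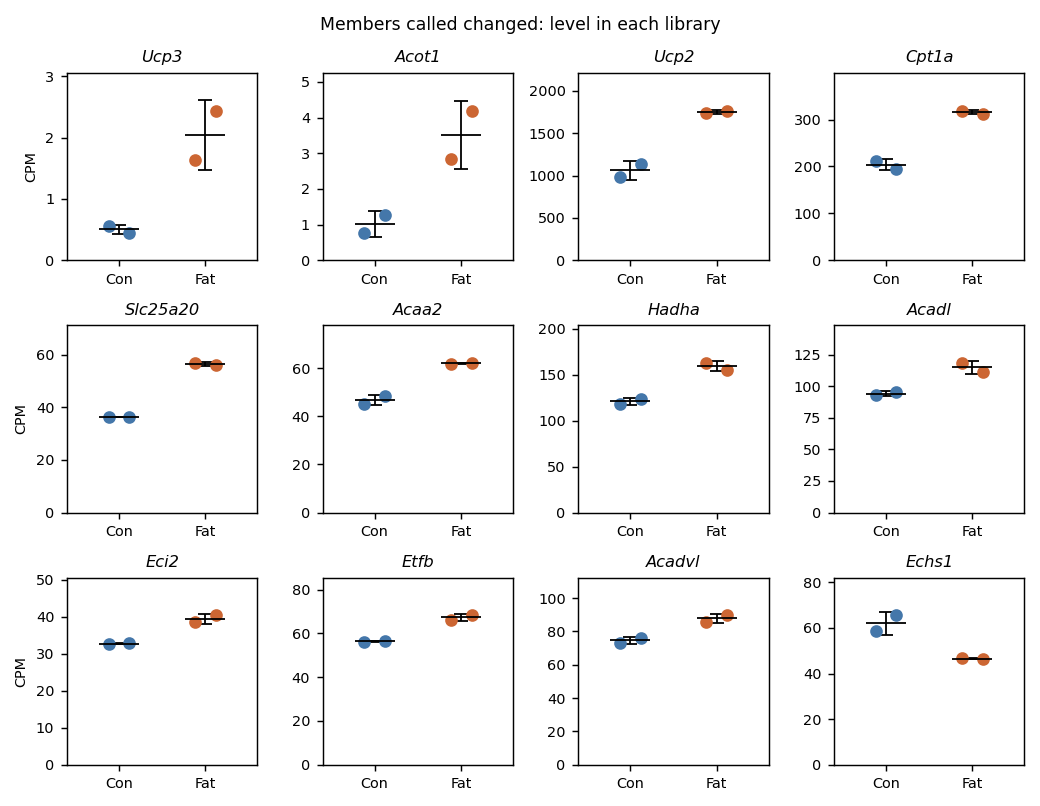
The CPM of each library (y axis, starting at 0) is plotted for the 12 called members in Con and Fat, in the order of their log2 fold change. Points are libraries, and the line and bars are the mean and SD (n = 2). In each panel the Fat points lie on a single side of the Con points, below them for Echs1 and above them for the other 11 members.

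In peroxisomes, 1 of the 7 tested members was called higher (against 3.99% of all genes tested). The smallest adjusted p of the other 6 was 0.313. Eci2, an enoyl-CoA isomerase found in peroxisomes and mitochondria, was at 32.6 and 32.8 CPM in Con and at 38.5 and 40.5 CPM in Fat. Eci2 rose by 0.27 on the log2 scale (standard error 0.06, limma adjusted p = 0.0394). Exons of Eci2 overlap an opposite-strand gene over 10.8% of their bases. Acox3, an oxidase for branched chains, overlapped between groups, at 181.2 ± 9.56 CPM (SD, n = 2) in Con and 182.2 ± 1.75 CPM in Fat (95% interval of the log2 fold change -0.13 to 0.14). For Hsd17b4, the D-bifunctional protein, the log2 fold change was 0.10 (adjusted p = 0.319). Ehhadh, the L-bifunctional protein, Decr2, the peroxisomal dienoyl-CoA reductase, and Acaa1a, a peroxisomal thiolase, were each lower in both Fat libraries without being called, with log2 fold changes between -0.16 and -0.09. Pex11a, a factor of peroxisome division, was at 3.51 and 6.0 CPM in Con and at 5.84 and 6.46 CPM in Fat, so the groups overlapped (log2 fold change 0.41, standard error 0.23, adjusted p = 0.33). Without Con replicate 2 it was called (adjusted p = 0.0188), and without Con replicate 1 its log2 fold change was 0.03. The median of the 7 tested members was 0.01 on the log2 scale, and it was -0.05 without Con replicate 1 and 0.06 without Con replicate 2.

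Acaa1b, the second peroxisomal thiolase, had 2 reads in each Con library and 8 and 5 reads in the Fat libraries. Pooled over libraries and scaled as the CPM are, this is a ratio of 2.96 with an exact 95% interval from 0.916 to 12.5, which covers counting error only. Acaa1a shares 27.2% of its 75-base stretches with Acaa1b, and Acaa1a had 76.2 and 80.2 TPM in the Con libraries, so even the few reads on Acaa1b are uncertain. A change of Acaa1b was not detectable at this depth.

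Thioesterases split acyl-CoA into free fatty acid and coenzyme A. Of 4 members, 1 was called higher, Acot1 (against 3.99% of all genes tested). Acot1, the cytosolic enzyme, was at 0.767 and 1.28 CPM in Con and at 2.84 and 4.20 CPM in Fat, which corresponds to 26 and 48 reads and to 106 and 172 reads. The lower Fat library lay above the higher Con library, and the spread within each group was wide. Acot1 rose by 1.70 on the log2 scale (standard error 0.28, 3.25-fold, limma adjusted p = 0.0145), between 1.37 and 2.04 when 1 library was left out. Acot2, the mitochondrial enzyme, was at 2.83 and 3.36 CPM in Con and at 4.34 and 5.17 CPM in Fat. It was not called (log2 fold change 0.60, 95% interval 0.23 to 0.97, adjusted p = 0.0591). The TPM ratio of Acot1 to Acot2 was 0.382 and 0.537 in Con and 0.923 and 1.14 in Fat. These neighbouring genes share sequence, with 26.1% of the stretches of Acot1 and 21.2% of those of Acot2 found in other genes of the family, so the split of reads between them is uncertain. Acot8, a peroxisomal thioesterase, and Acot13, which associates with mitochondria, overlapped between groups (log2 fold changes 0.09 and -0.00, adjusted p = 0.736 and 0.982).

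Ucp2 was called higher, when 3.99% of all genes tested were. Ucp3 was called higher too, but it passed the filter only through Fat, so its call is not read against that share. Ucp2, an inner membrane carrier abundant in macrophages, was at 984.0 and 1139 CPM in Con and at 1732 and 1765 CPM in Fat. The Fat libraries were close together and far above both Con libraries. Ucp2 rose by 0.72 on the log2 scale (standard error 0.09, 1.65-fold, limma adjusted p = 0.00514), between 0.62 and 0.83 when 1 library was left out. Ucp3, the relative best known from muscle and brown fat and the direct neighbour of Ucp2 on the chromosome, was at 0.560 and 0.453 CPM in Con and at 1.63 and 2.44 CPM in Fat. These values rest on 19 and 17 reads in Con and on 61 and 100 reads in Fat. With Con replicate 2 under 0.5 CPM, Ucp3 passed the filter only through the group where it was high. Ucp3 rose by 1.80 on the log2 scale (standard error 0.27, 3.47-fold, limma adjusted p = 0.0104), between 1.52 and 2.07 when 1 library was left out. Per length, Ucp2 exceeded Ucp3 1040 and 1488 times in the Con libraries and 627.6 and 428.5 times in the Fat libraries. Ucp3 and Acot1 were both higher in Fat replicate 2 than in Fat replicate 1. The adipocyte markers together held 423 and 240 reads in the Fat libraries, of which Car3 gave 269 and 139. Adipoq, Lep, Retn, Cfd, Plin4, Aqp7, Thrsp and Pck1 also held more reads in Fat replicate 1. Plin1, Cidea and Adrb3, at few reads, held more in Fat replicate 2, and Slc2a4 held 2 in each. The part of adipocyte RNA in the low-level members Ucp3 and Acot1 was not tested.

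**Figure D3:**
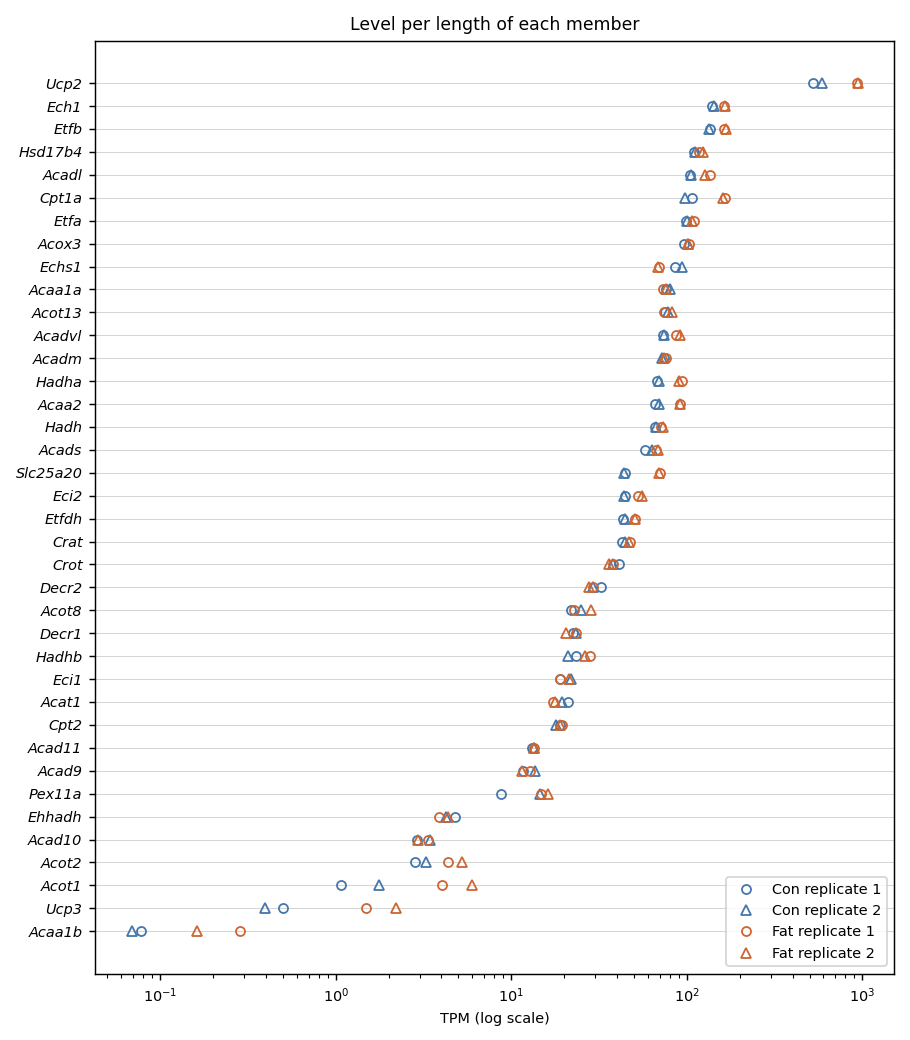
The TPM of each library (x axis, log scale) is plotted for all 38 members (y axis), ordered by their mean in Con, with circles and triangles for replicates 1 and 2. Ucp2 is highest, at 520.9 and 591.2 TPM in Con and 928.5 and 945.4 TPM in Fat, and the widest gaps between groups are at the low end, for Acot1, Ucp3 and Acaa1b.

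Levels among the members, compared per length, ran from 0.0773 and 0.0685 TPM for Acaa1b to 520.9 and 591.2 TPM for Ucp2 in the Con libraries. Next to Ucp2 stood Ech1 (139.1 and 142.0 TPM in Con), Etfb (136.1 and 134.0 TPM) and Hsd17b4 (109.4 and 110.6 TPM). Ech1 and Etfb lay within a few TPM of each other, and Acadl, Cpt1a, Etfa and Acox3 followed at between 96.5 and 107.7 TPM, where the libraries of Cpt1a spanned the values of Acadl and Etfa. In Fat, Cpt1a stood at 164.4 and 161.0 TPM, among the values of Ech1 (162.6 and 165.1 TPM) and Etfb (162.5 and 167.4 TPM). At the low end, Ehhadh, Acad10 and Acot2 lay between 2.82 and 4.76 TPM in Con. Of the 6 members with over 20% of their stretches shared with other genes (Hadhb, Etfb, Acaa1a, Acaa1b, Acot1 and Acot2), 2 were called higher. Without them 9 members were called higher and 1 lower. Of all genes tested, 3.99% were called higher and 5.0% lower.

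Summed over the 38 members, the pathway stood at 2375 and 2477 TPM in Con and at 3063 and 3094 TPM in Fat. Ucp2 accounted for much of that difference, and without it the sums were 1854 and 1885 TPM in Con and 2134 and 2149 TPM in Fat. The carnitine shuttle summed to 254.7 and 241.5 TPM in Con and to 340.1 and 332.4 TPM in Fat. The 19 genes of the mitochondrial steps summed to 1125 and 1151 TPM in Con and to 1292 and 1287 TPM in Fat. The peroxisomal members summed to 372.3 and 384.4 TPM in Con and to 395.2 and 404.9 TPM in Fat. In CPM their sums overlapped between groups, at 443.0 and 464.5 in Con and at 461.4 and 469.4 in Fat. The median log2 fold change over all genes tested was 0.04 on TPM and 0.01 on CPM. Thioesterases overlapped between groups, with 105.1 TPM in Fat replicate 1 under the 108.2 TPM of Con replicate 2.

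**Figure D4:**
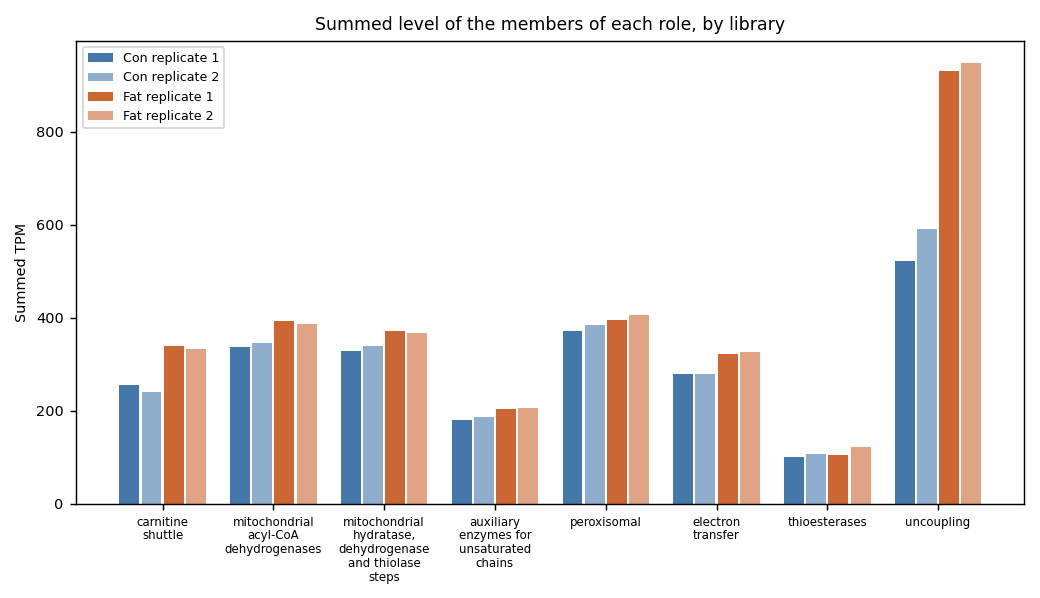
The summed TPM of the members of each role (y axis, starting at 0) is plotted for each of the 4 libraries, Con in blue and Fat in orange. The uncoupling proteins show the widest gap, from 521.4 and 591.5 TPM in Con to 930.0 and 947.6 TPM in Fat, and the thioesterases overlap.

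Further genes of the pathway were examined from a separate list of related enzymes, transporters and peroxins. Of the 56 tested, 3 were called higher and 5 lower (5.36% and 8.93%, against 3.99% and 5.0% of all genes tested, so the share called higher was near that background), and their median log2 fold change was -0.04. Among peroxisomal transporters, Abcd2 and Abcd3, which import very long-chain and branched acyl-CoA, rose (log2 fold changes 0.36 and 0.23, limma adjusted p = 0.026 and 0.0385). Acot4, a peroxisomal thioesterase of the Acot1 family, was at 0.944 and 0.880 CPM in Con and at 2.09 and 2.24 CPM in Fat (log2 fold change 1.16, limma adjusted p = 0.0153). On the other side, Oxct1, which activates ketone bodies for oxidation, was at 196.3 and 217.3 CPM in Con and at 141.9 and 133.0 CPM in Fat. It fell by 0.59 on the log2 scale (limma adjusted p = 0.00468). Phyh, which starts alpha-oxidation of phytanic acid, fell by 0.39 on the log2 scale (limma adjusted p = 0.0105). The branched-chain dehydrogenase Acadsb, the methylmalonyl-CoA mutase Mut and the mitochondrial thioesterase Acot9 fell by 0.31, 0.34 and 0.27 (limma adjusted p = 0.0481, 0.0199 and 0.0378). The 15 peroxins, which build peroxisomes, had log2 fold changes between -0.12 and 0.31 and limma adjusted p-values from 0.231 upwards. Slc22a5, the carnitine importer of the plasma membrane, did not pass, at a log2 fold change of 0.39 (limma adjusted p = 0.0611).

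Of the 6 tested regulators known to control the pathway, 1 was called lower and 0 higher (against 5.0% and 3.99% of all genes tested). Pparg, the gene called, was at 32.8 and 37.7 CPM in Con and at 22.9 and 20.9 CPM in Fat (log2 fold change -0.68, limma adjusted p = 0.00639). The other 5 were not called, with log2 fold changes between 0.05 and 0.20. Ppard was among them (log2 fold change 0.16, adjusted p = 0.175). Ppara had 1 and 3 reads in Con and 1 and 2 reads in Fat, and Ppargc1a had at most 3 reads in any library, so neither was detected above the limit of 3 reads used here.

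The calls of Acadvl, Eci2, Etfb and Acadl were the least stable. When 1 library was left out, Acadvl had adjusted p-values between 0.0563 and 0.24, Eci2 between 0.0692 and 0.218 and Etfb between 0.0632 and 0.171, so none of these 3 was called in any of the 4 fits with limma. Acadl lost its call without Con replicate 1 and without Fat replicate 1 (adjusted p up to 0.0969). The other 8 called members kept their call in all 4 fits. Each of these 4 fits leaves 1 group with a single library, and the share of all genes called in them was not computed.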

How the data were processed

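RNA of macrophages kept for 24 h in Con or Fat medium was sequenced by the authors as single reads of 75 bases from stranded, polyA-selected libraries, 2 per medium. The deposited CPM values are the authors' reads divided by each library's total and a further factor, which equals edgeR's TMM factor computed from the recovered reads. The deposited TPM values are the authors' values scaled also for gene length. Groups were taken from the sample titles. The genome build in the submitters' processing notes is GRCm39. The aligner, the counting and the annotation are not given in the sources used here.

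Each CPM value was a whole multiple of its library's smallest value (100% of values, relative tolerance 1e-06), so reads were recovered. The Con libraries held 33573852 and 37881292 reads and the Fat libraries 37534565 and 40785872. A group with 3 reads or fewer in each library was treated as not detected, which covers counting error only. Of 17013 genes, 12470 reached 0.5 CPM in 2 or more libraries. They were fitted on log2(CPM + 0.1) by limma 3.58.1 (R 4.3.3) using its mean-variance trend, two-sided, and p-values were adjusted by Benjamini-Hochberg with a threshold of 0.05. Fold changes are on that scale, which understates changes of low genes. The 95% intervals use limma's standard error and degrees of freedom. The alternatives tried were TPM, a pseudocount of 1, a filter on a mean of 5 CPM, omission of the filter, median-ratio scaling, a replicate block, no trend, an unadjusted threshold, each library left out, members left out for shared sequence, and edgeR 4.0.16 (quasi-likelihood and exact) and DESeq2 1.42.0 on recovered reads. The main limma fit, the replicate block, both edgeR tests and DESeq2 were tested on simulated data, and the other alternatives were not. Shared sequence was counted as exact 75-base stretches, at steps of 5 bases, of the longest coding transcript in GENCODE vM21. The choice to leave out all 6 members with over 20% shared was made after seeing the data.

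The members and lists were chosen with earlier results of these data known, and no set test was run. All members are named. Called members are given by library, as are members not called whose groups separate by 0.3 or more on the log2 scale and members with 3 reads or fewer in a group. Of the other lists, called genes are named with up to 10 values. Chosen after their values were seen are the other members given by library, and Ppard, Ppara, Ppargc1a and Slc22a5. Naming the macrophage, adipocyte and stromal markers gene by gene was also decided after their values were seen. Summaries and figures used Python 3.11.15 with pandas 2.3.3, scipy 1.17.1 and matplotlib 3.10.9.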

Additional observations from a re-analysis of the deposited data

How the results depend on the processing

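The 11 members called higher and the 1 called lower were 0 and 0 without limma's mean-variance trend, which leaves the fold changes as they are. When 1 library was left out, 7 to 9 members were called higher and 1 to 1 lower, and the median log2 fold change lay between 0.05 and 0.14. With unadjusted p-values up to 0.05, 15 members were higher and 2 lower, when 11.8% and 12.4% of all genes tested were. DESeq2 on the recovered reads called 8 higher, without Acadvl, Eci2 and Etfb, and edgeR's exact test 12, adding Acot2. With no filter, 10 were called higher, without Acadvl, and the share of all genes called in that fit was not computed. A filter on a mean of 5 CPM left out Ucp3, Acot1 and Acot2. With it 9 members were called higher and 1 lower, and that share was not computed either. No called member changed direction under any alternative that refits the values. The deviations of same-numbered libraries from their group means had a correlation of 0.20 across genes, but 2 numbers shared by the labels do not show that the libraries were paired. With the replicate number as a block, 16 members were called higher and 2 lower, when 10.2% and 9.96% of all genes tested were, and the additions were Hadhb, Ech1, Etfdh, Acot2, Pex11a and, lower, Acat1. The block leaves each gene 1 residual degree of freedom. Without the 4 members Acot1, Acot2, Acaa1a and Acaa1b, 10 of 34 tested were higher (29.4%) and 1 lower (2.94%), when 3.99% and 5.0% of all genes tested were. Members at few reads, Acaa1b, Ucp3 and Acot1, are those that depth limits most. The smallest change called for a member was 0.23 on the log2 scale.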
